A study of Mus musculus with 8 samples.

Results

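Tbr1, Neurod1, Neurod2, Neurod6, Lhx2, Emx2, Bhlhe22, Fezf2 and Mef2c are transcription factors of the pallial glutamatergic lineage. They were taken as a fixed list of names, all 9 have values among the 14353 genes of the deposited table, and all 9 were among the 14249 genes tested. The values come from ventral pallidum (VP) tissue of untreated mice that were homozygous for VGluT2-Cre and heterozygous for Rpl22 (RiboTag). In these animals Cre is driven by the gene of the vesicular glutamate transporter vGluT2 and adds an HA tag to a ribosomal protein. The tag persists in every cell that has made Cre at any time. TRAP libraries hold ribosome-bound mRNA pulled down through the tag and are labelled as glutamatergic neurons, and INPUT libraries hold mRNA of the lysate before the pull-down and are labelled as neurons and glia together. The 8 libraries came from 4 pools of mice (VP1.6, VP2.2, VP2.6, VP2.11), and every pool gave 1 TRAP and 1 INPUT library. A pool joined 7 to 11 mice of both sexes, 15 male and 23 female in total. The mice of VP1.6 were 9 to 12 weeks old and those of the other pools 10 to 16 weeks old. The same genotype was used for both fractions, and no library without Cre was analysed here.

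Most glutamatergic neurons of the forebrain's pallium, which forms the cortex, hippocampus and parts of the amygdala, are made through a cascade of these factors. Lhx2, a LIM homeodomain factor, and Emx2, a homeodomain factor, pattern the progenitors of the early pallium. Neurod1, Neurod2 and Neurod6 are basic helix-loop-helix (bHLH) factors that act as neurons leave the cell cycle and mature, and they bind E-box motifs together with E proteins. Tbr1, a T-box factor, and Fezf2, a zinc finger factor, help to set the identity of deep-layer projection neurons. Bhlhe22 is a bHLH repressor of projection neurons that acts with Prdm8, and Mef2c is a MADS-box factor that controls activity-dependent genes in maturing and adult neurons. The VP itself is known mostly for GABAergic neurons that arise in the subpallium, with smaller glutamatergic and cholinergic populations.

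The 3 NeuroD genes carry much of the description that follows, and the DNA before their gene starts is shown with each E-box in capitals (CANNTG, a palindrome, so both strands are covered). The sequences are from RefSeq on GRCm38.p6, written 5′ to 3′ on the strand of the gene, and each window ends before the first transcribed base of the annotations used. They lie at chr2:79456752-79456886, chr11:98329649-98329895 and chr6:55681267-55681513, all on the minus strand.
Neurod1: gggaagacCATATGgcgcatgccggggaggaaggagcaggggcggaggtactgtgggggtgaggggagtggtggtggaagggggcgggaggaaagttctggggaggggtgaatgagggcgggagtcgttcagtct
Neurod2: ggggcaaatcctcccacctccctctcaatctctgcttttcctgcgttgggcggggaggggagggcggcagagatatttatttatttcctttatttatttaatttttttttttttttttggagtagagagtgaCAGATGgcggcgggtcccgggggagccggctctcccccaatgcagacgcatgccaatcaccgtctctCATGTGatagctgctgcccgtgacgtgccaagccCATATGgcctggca
Neurod6: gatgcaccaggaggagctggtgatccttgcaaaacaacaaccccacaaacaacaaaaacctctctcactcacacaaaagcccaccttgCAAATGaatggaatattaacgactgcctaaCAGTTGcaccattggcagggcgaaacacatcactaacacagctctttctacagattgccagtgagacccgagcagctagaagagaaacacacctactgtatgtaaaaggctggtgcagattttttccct
The Neurod1 window of 135 bases holds 1 E-box, which starts at -242 from the RefSeq gene start. The Neurod2 window of 247 bases holds 3, at -118, -51 and -17, and the Neurod6 window of 247 bases holds 2, at -162 and -132. The motif is short and common, and was present in 45.6% of 32851 mouse promoters over the Neurod1 window and in 65.9% over the longer window. Of the 9 genes, 8 had a promoter entry and 5 of these held an E-box in it.

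Levels are given as scaled read counts (CPM, counts relative to library size), back-calculated from the deposited log2 values, in the pool order VP1.6, VP2.2, VP2.6, VP2.11. TRAP was compared with INPUT within pools by limma across all genes tested, with pool as a block, and a gene was called at a Benjamini-Hochberg adjusted p under 0.05. Of the 9 factors, 8 were called higher in TRAP and 0 lower. Over all genes tested, 15.4% were called higher and 16.8% lower. At an unadjusted limma p under 0.05 the counts for the 9 were also 8 and 0. Their median log2 fold change (TRAP minus INPUT) was 1.76, whereas that of all genes tested was -0.05. In 8 of the 9 the lowest TRAP library lay above the highest INPUT library, which held for 23.3% of all genes tested. A fit without the block called 23.2% of all genes higher and 24.8% lower, and gave the same 8 and 0 for these factors. Over all genes, libraries of the same pool deviated from their fraction means in opposite directions. A fit without the block then understates the spread and calls too many genes, so its calls here and below are no added support. This is bulk RNA from pools, ribosome-bound in TRAP and of the whole lysate in INPUT. The number of tagged cells with a transcript, its amount per tagged cell and its ribosome binding cannot be told apart. Other sources of a difference between the fractions are not excluded.

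**Figure D1:**
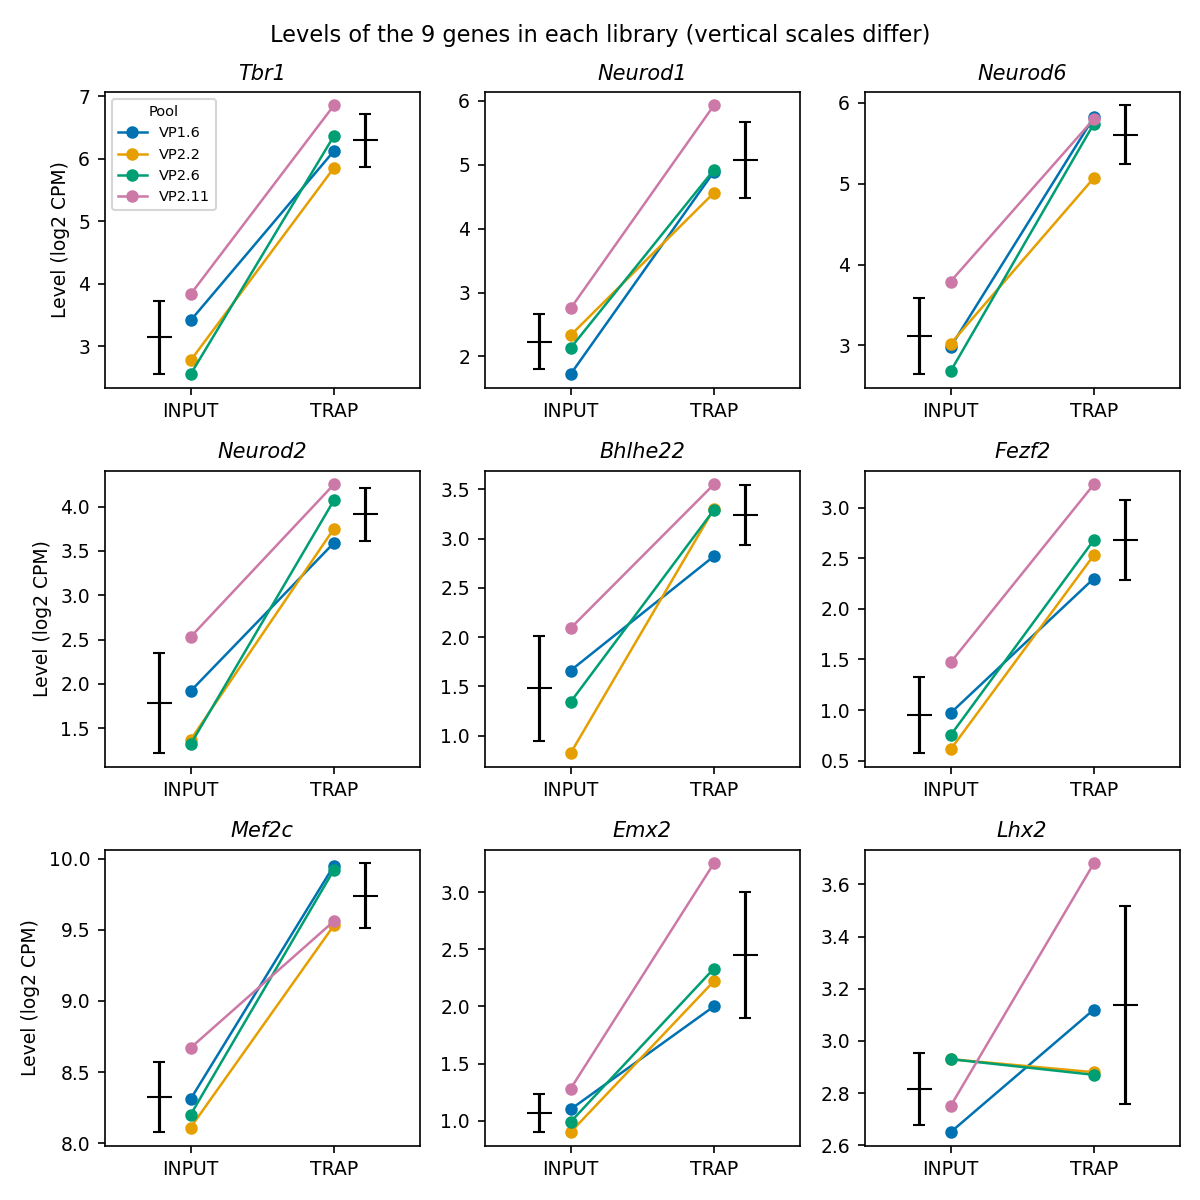
Level in log2 CPM (vertical axis, with its own scale in each panel) of each of the 9 factors in the INPUT and TRAP libraries. Lines join the libraries of 1 pool, colours mark the 4 pools, and black bars give the mean ± SD (n = 4). All lines rise from INPUT to TRAP for 8 factors, while the VP2.2 and VP2.6 lines of Lhx2 fall by 0.05.

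Tbr1 (ENSMUSG00000035033, chr2:61802930-61814114, plus strand, GRCm38) had the highest mean difference of the 9, although Neurod1 exceeded it in VP1.6 and VP2.11 and their intervals overlap. Its TRAP levels were 69.5, 57.5, 82.3 and 115 CPM, with a mean of 81.2 ± 24.9 CPM (SD, n = 4). Its INPUT levels were 10.6, 6.80, 5.85 and 14.2 CPM, with a mean of 9.37 ± 3.84 CPM. The groups did not overlap, and both were highest in VP2.11. The log2 fold change was 3.16 (SE 0.25, 95% interval 2.62 to 3.69, adjusted p = 1.0e-06), or 8.91-fold, which ranked 19 among the 14249 genes tested. The differences within pools ran from 2.71 in VP1.6 to 3.81 in VP2.6.

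The NeuroD genes, whose products drive neuronal differentiation, all rose, and each did so in all 4 pools. Neurod1 (ENSMUSG00000034701, chr2:79452521-79456751, minus strand), which is also active in newborn granule neurons, had 29.7, 23.5, 30.4 and 61.0 CPM in TRAP and 3.29, 5.04, 4.38 and 6.73 CPM in INPUT. The VP2.11 TRAP library stood above the other 3, and the lowest TRAP library still exceeded every INPUT library. Neurod1 had a log2 fold change of 2.84 (SE 0.28, 95% interval 2.24 to 3.45, adjusted p = 1.0e-05), or 7.17-fold. Of its exon bases, 7.37% are shared with the same-strand gene Cerkl and 5.64% with an antisense transcript, neither of which has values here.

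Neurod6 (ENSMUSG00000037984, chr6:55677822-55681263, minus strand), a factor retained in mature pyramidal neurons, had 56.4, 33.5, 53.6 and 55.7 CPM in TRAP and 7.89, 8.14, 6.42 and 13.8 CPM in INPUT. Here 3 TRAP libraries were close together and VP2.2 was lower, while INPUT was highest in VP2.11. Neurod6 had a log2 fold change of 2.49 (SE 0.27, 95% interval 1.92 to 3.06, adjusted p = 2.0e-05), or 5.61-fold. Neurod2 (ENSMUSG00000038255, chr11:98325415-98329648, minus strand), which is needed for synapse maturation in cortical neurons, had 12.0, 13.4, 16.8 and 19.0 CPM in TRAP and 3.78, 2.58, 2.5 and 5.78 CPM in INPUT. Its log2 fold change was 2.13 (SE 0.33, 95% interval 1.43 to 2.83, adjusted p = 3.6e-04), or 4.37-fold, and its groups did not overlap. The intervals of the 3 NeuroD genes overlap one another, and the differences within pools put Neurod2 lowest of them in VP1.6, VP2.6 and VP2.11 and Neurod6 lowest in VP2.2. The number of E-boxes before the gene starts (1, 2 and 3 for Neurod1, Neurod6 and Neurod2) is given as a description of sequence and was not related to the levels.

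Bhlhe22 and Fezf2, factors of projection neuron identity, rose by similar amounts. Bhlhe22 (ENSMUSG00000025128, chr3:18054174-18057517, plus strand) had 7.05, 9.84, 9.76 and 11.7 CPM in TRAP against 3.16, 1.76, 2.53 and 4.26 CPM in INPUT. Its log2 fold change was 1.76 (SE 0.37, 95% interval 0.98 to 2.54, adjusted p = 0.0025), or 3.39-fold, and the pools ranged from 1.16 in VP1.6 to 2.48 in VP2.2. Fezf2 (ENSMUSG00000021743, chr14:12342094-12348189, minus strand) had 4.94, 5.79, 6.41 and 9.38 CPM in TRAP against 1.95, 1.53, 1.68 and 2.77 CPM in INPUT. Both genes were highest in VP2.11 in each fraction, and neither had overlapping groups. The log2 fold change of Fezf2 was 1.74 (SE 0.40, 95% interval 0.89 to 2.59, adjusted p = 0.0044), or 3.33-fold.

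Mef2c (ENSMUSG00000005583, chr13:83504034-83667080, plus strand) was the most abundant of the 9 per kilobase of exon in both fractions. It had 992, 737, 971 and 755 CPM in TRAP, a mean of 864 ± 136 CPM, and 317, 276, 294 and 407 CPM in INPUT, a mean of 324 ± 58.3 CPM. The groups did not overlap, although VP2.11 combined a low TRAP level with the highest INPUT level and so gave the smallest difference, 0.89. The log2 fold change was 1.42 (SE 0.23, 95% interval 0.92 to 1.92, adjusted p = 5.4e-04), or 2.67-fold. Mef2c has 15715 bases of merged exons, and across all genes tested longer exons went with higher log2 fold changes (Spearman rho = 0.412, taken across genes that are no independent replicates). With that trend taken out in each pool, the log2 fold change of Mef2c was 0.82 (adjusted p = 0.014).

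The early patterning factors, Emx2 and Lhx2, were at the low end of the log2 fold changes, with Emx2 close to Mef2c and above it in VP2.11. Emx2 (ENSMUSG00000043969, chr19:59458372-59465357, plus strand) had 4.01, 4.65, 5.02 and 9.51 CPM in TRAP and 2.14, 1.87, 1.99 and 2.43 CPM in INPUT. Every TRAP library lay above every INPUT library, and the VP2.11 TRAP library was well above the rest. Emx2 had a log2 fold change of 1.38 (SE 0.41, 95% interval 0.50 to 2.26, adjusted p = 0.019), or 2.61-fold. It missed the threshold when VP2.6 (1.4, adjusted p = 0.066) or VP2.11 (1.19, adjusted p = 0.061) was left out. Antisense Emx2os shares 8.79% of the exon bases of Emx2. Emx2os had mean levels of 3.54 CPM in TRAP and 2.47 CPM in INPUT and a log2 fold change of 0.53 (adjusted p = 0.39), and reads over the shared bases cannot be told apart without strand.

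Lhx2 (ENSMUSG00000000247, chr2:38339281-38369733, plus strand) was the 1 factor that was not called. Its TRAP levels were 8.67, 7.36, 7.33 and 12.8 CPM, a mean of 9.04 ± 2.59 CPM, and its INPUT levels were 6.28, 7.63, 7.61 and 6.73 CPM, a mean of 7.06 ± 0.672 CPM. The groups overlapped: 2 TRAP libraries lay below 2 INPUT libraries. The differences within pools were 0.47, -0.05, -0.05 and 0.93, the lowest of the 9 factors in 3 of the 4 pools. The log2 fold change was 0.32 (SE 0.32, adjusted p = 0.46), and its 95% interval from -0.36 to 1.00 leaves room for a difference in either direction.

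**Figure D2:**
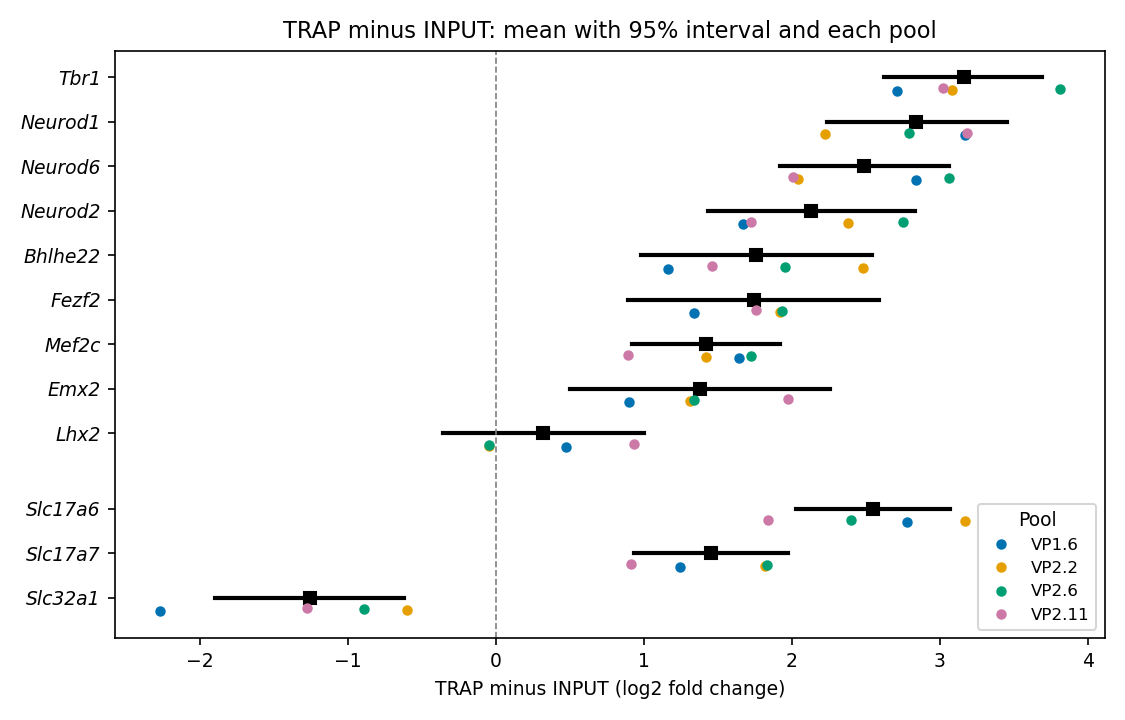
TRAP minus INPUT on the log2 scale (horizontal axis) for the 9 factors, ordered by size, and for 3 transporter genes below the gap. Squares and bars give the limma estimate with its 95% interval, and coloured points the difference within each pool (n = 4). The intervals of 8 factors lie above 0, that of Lhx2 spans -0.36 to 1.00, and Slc32a1 lies below 0.

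Slc17a6, which encodes vGluT2 and whose promoter drives Cre, gives a scale for these differences. It had 162, 130, 139 and 141 CPM in TRAP and 23.6, 14.4, 26.3 and 39.4 CPM in INPUT, a log2 fold change of 2.55 (SE 0.24, adjusted p = 7.3e-06). Of the 9 factors, 2 exceeded the difference of Slc17a6 in VP1.6, 0 in VP2.2, 4 in VP2.6 and 4 in VP2.11. Tbr1 minus Slc17a6 averaged 0.61 ± 0.80 (SD, n = 4 pools) and was positive in 2 pools, so the larger fold change of Tbr1 was within the spread between pools. For Neurod1 this value was 0.29 ± 0.94 and for Neurod6 -0.06 ± 0.76, each positive in 3 pools. Lhx2, Bhlhe22, Fezf2 and Mef2c lay below Slc17a6 in all 4 pools, by means of 2.23, 0.79, 0.81 and 1.13 on the log2 scale.

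Within TRAP, levels were highest in VP2.11 for 7 of the 9 factors, as for 34.1% of all genes tested. Within INPUT, they were highest in VP2.11 for 8 of the 9, Lhx2 being the exception, as for 23.0% of all genes tested. Slc17a6 was also highest in VP2.11 in INPUT but not in TRAP. The median difference of the 9 was 1.64 in VP1.6, 2.04 in VP2.2, 1.95 in VP2.6 and 1.76 in VP2.11, while that of all genes tested lay between -0.04 and -0.01. With VP2.11 left out, 7 of the 9 were called higher, Emx2 being the 1 lost.

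Per kilobase of merged exon, which allows levels of different genes to be compared, the factors spread widely in TRAP. Mef2c was highest, with a mean of 5.77 ± 0.23 log2 CPM per kb, and lay above 92.9% of genes tested. Neurod6 came next at 4.50 ± 0.36, then Tbr1 at 3.84 ± 0.43 and Neurod1 at 3.63 ± 0.59. Neurod2 stood at 2.26 ± 0.30 and Bhlhe22 at 1.5 ± 0.31, and Fezf2 (1.08 ± 0.39), Lhx2 (1.00 ± 0.38) and Emx2 (0.86 ± 0.55) closed the order. Neighbours in this order kept their order in all 4 TRAP libraries, except Tbr1 and Neurod1 (3 of 4), Fezf2 and Lhx2 (3 of 4) and Lhx2 and Emx2 (2 of 4). For these 3 pairs the difference lay within its spread between libraries.

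In INPUT, Mef2c (4.35 ± 0.25 log2 CPM per kb) and Neurod6 (2.01 ± 0.47) again led, and Fezf2 was last at -0.66 ± 0.38. Neurod1 (0.78 ± 0.43), Tbr1 (0.68 ± 0.59) and Lhx2 (0.68 ± 0.14) lay together in INPUT, with neighbours in the same order in only 2 of 4 libraries. Below them came Neurod2 (0.13 ± 0.57), Bhlhe22 (-0.26 ± 0.54) and Emx2 (-0.52 ± 0.16), and of the neighbours from Lhx2 down only Neurod2 and Bhlhe22 kept their order in all 4. Lhx2 thus stood level with Tbr1 in INPUT and well below it in TRAP. By rank among all genes tested, Tbr1 moved from above 29.4% of genes in INPUT to above 78.4% in TRAP, and Neurod1 from 30.8% to 76.2%. The other bHLH genes moved likewise, Neurod6 from 51.9% to 85.1%, Neurod2 from 21.8% to 57.0% and Bhlhe22 from 16.7% to 44.6%. Fezf2 went from 12.2% to 37.5% and Emx2 from 13.7% to 34.1%, while Mef2c was high in both (83.0% and 92.9%). Lhx2 moved from 29.3% to 36.3%. As ranks are bounded, a gene already high in INPUT has less room to move. The lowest value of any factor in any library was 1.53 CPM, so all 9 passed the filter of 1 CPM through both fractions. Merged exons can overstate the length of a transcript, most of all for Mef2c, and so understate its level per kilobase.

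**Figure D3:**
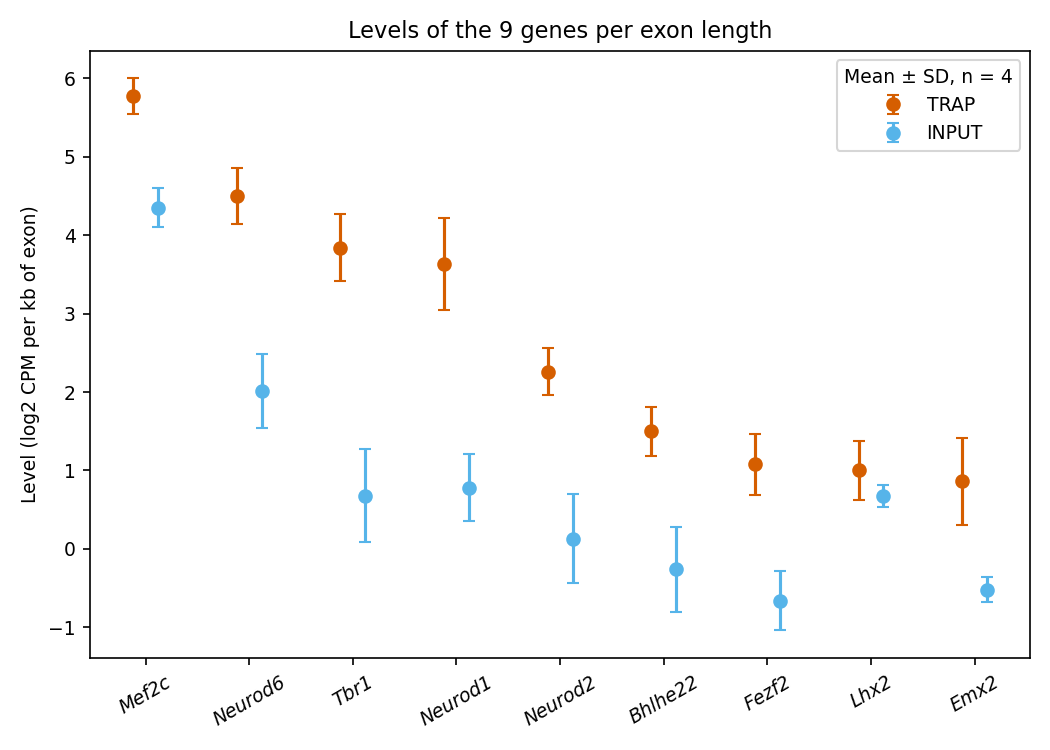
Mean level per kilobase of merged exon (vertical axis, log2 CPM per kb) of the 9 factors in TRAP and INPUT, ordered by TRAP. Points are means and bars SD over 4 libraries. Mef2c is highest in both fractions, at 5.77 and 4.35, and Lhx2 shows the smallest gap between fractions.

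Relatives and partners of the factors were read from lists of gene names. Beside the counts below, 15.4% of all genes tested were called higher and 16.8% lower, with a median log2 fold change of -0.05. Of 9 bHLH relatives with their partner Prdm8, 3 were tested and 2 were called higher in TRAP. These were Nhlh2, a bHLH factor of developing neurons, at 2.25 (adjusted p = 0.0019) and Prdm8, the corepressor that acts with Bhlhe22, at 2.41 (adjusted p = 2.1e-04). The proneural genes Neurog1 and Neurog2 and the relatives Neurod4, Nhlh1, Olig3 and Bhlhe23 have no values here. Of 10 E proteins and Id or Hes factors, 1 was called higher and 6 lower, with a median log2 fold change of -1.36. Tcf4, an E protein that pairs with NeuroD factors, rose by 1.35 (adjusted p = 3.9e-04), but was not called with the exon length trend taken out (0.57, adjusted p = 0.058). Those that fell were led by Id1 (-3.27, adjusted p = 0.015) and Id3 (-2.87, adjusted p = 7.0e-05), which sequester E proteins, the E protein gene Tcf3 (-2.38, adjusted p = 0.021) and Hes5 (-2.11, adjusted p = 0.0038), a Notch-induced repressor. Id1 was not called without VP2.6 (-1.80) or without a trend in the variance prior. Tcf3 was not called without VP1.6 (-1.77) or VP2.2 (-2.23), and both genes passed the filter on low values through INPUT. Over the alternatives, 3 to 6 genes of this list were called lower. Id3 and Hes genes are also expressed in astrocytes, whose markers fell in TRAP, and the part of astrocytes in these values was not tested.

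Of 13 tested genes for LIM cofactors and other LIM homeodomain factors, 4 were called higher and 2 lower, with a median of -0.25. Lhx2's family members Lhx5 (2.44, adjusted p = 0.012), Lhx9 (2.38, adjusted p = 2.7e-04) and Lhx1 (1.62, adjusted p = 0.0094) rose, as did Rlim (1.6, adjusted p = 2.1e-04), a ubiquitin ligase for LIM cofactors. Lmo2 (-1.51, adjusted p = 0.0071) and Lmo4 (-1.13, adjusted p = 0.0014), LIM-only proteins, fell. Lmo2 was not called without VP2.6 (-1.04, adjusted p = 0.058). Lhx5, which passed the filter through TRAP, was not called without VP2.6 (2.00), nor Lhx1 without VP1.6 (1.43). Of 8 MEF2 relatives and class IIa HDAC repressors, 3 were called higher and 0 lower, and 5 were called higher without the block. The 3 were Hdac9 (1.12, adjusted p = 0.0035), Mef2d (0.66, adjusted p = 0.033) and Mef2a (0.65, adjusted p = 0.031). With the exon length trend taken out, none of these 3 was called, at 0.55, 0.44 and 0.07. Mef2d also missed the threshold without VP1.6 or VP2.6, and Mef2a without VP1.6, VP2.6 or VP2.11. Both missed it without a trend in the variance prior. Each had a smaller log2 fold change than Mef2c.

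Other factors of pallial progenitors and projection neurons were called in both directions, at shares not far from those over all genes tested. Of 19, 4 were called higher and 2 lower, beside 15.4% and 16.8% of all genes tested. Their median log2 fold change was 0.06, and without the block the counts were 4 and 4. With the exon length trend taken out they were 3 and 7, with a median of -0.32, and without VP1.6 they were 1 and 0. Emx1 (2.58, adjusted p = 0.013), the relative of Emx2, and Eomes (2.40, adjusted p = 0.0032), the T-box relative of Tbr1 in intermediate progenitors, rose from INPUT levels at or under 1.54 CPM and passed the filter through TRAP. Emx1 was not called without VP1.6 (2.10) or VP2.11 (2.09). Zbtb18 (0.66, adjusted p = 0.037), a zinc finger repressor, also rose, but was not called when any 1 pool was left out. It was also not called with the exon length trend taken out (0.43) or without a trend in the variance prior. Pou3f1 (-1.33, adjusted p = 0.021) and Pou3f3 (-0.92, adjusted p = 0.012) fell. Pou3f1 was not called without VP1.6 (-1.01), VP2.2 (-1.28) or VP2.6 (-1.11), nor Pou3f3 without VP1.6 (-0.85) or VP2.6 (-0.71), nor either without a trend in the variance prior. Bcl11b, which Fezf2 is known to act through in cortex and which striatal neurons also express, was at -0.53 (adjusted p = 0.093, and 0.023 without the block). Bcl11b was also called lower with library weights (-0.74), with the exon length trend taken out (-0.89) and without VP2.2 (-0.73). Pax6, of pallial progenitors, was at -0.37 (adjusted p = 0.36), and was called lower only with the exon length trend taken out (-0.87).

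A list of Tbr1 partner and target genes and a list of cortical glutamatergic effector genes had calls only in the higher direction. Whether the 9 factors control any of these genes here was not tested. Of 4 tested genes for a partner and targets of Tbr1, 2 were called higher, 3 without the block, and 0 lower. The 2 were Reln (1.63, adjusted p = 0.0012), an extracellular signal of migrating neurons, and Grin2b (1.51, adjusted p = 0.0013), an NMDA receptor subunit. With the exon length trend taken out both were still called, at 0.89 and 0.76, and the median of the 4 went from 1.06 to 0.32. Of 5 cortical glutamatergic effector genes, 4 were called higher and 0 lower, with a median of 1.42. They were Nptx1 (1.93, adjusted p = 5.7e-05), a synaptic pentraxin, Slc17a7 (1.45, adjusted p = 6.2e-04), which encodes the vGluT1 transporter of cortical neurons, Nrn1 (1.42, adjusted p = 2.4e-04) and Camk2a (1.00, adjusted p = 0.0042). Slc17a7 had 50.1, 52.3, 61.5 and 51.6 CPM in TRAP and 21.3, 14.8, 17.3 and 27.5 CPM in INPUT. The summed level of these 5 genes was 1260 to 1450 CPM in TRAP and 596 to 737 CPM in INPUT. Camk2a made up most of this sum, with means of 837 CPM in TRAP and 421 CPM in INPUT. Like 8 of the 9 factors, the sum was higher in TRAP, but the sum and the factors were not compared pool by pool. Whether tissue beside the VP has a part in the sum or in the factors was not tested.

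**Figure D4:**
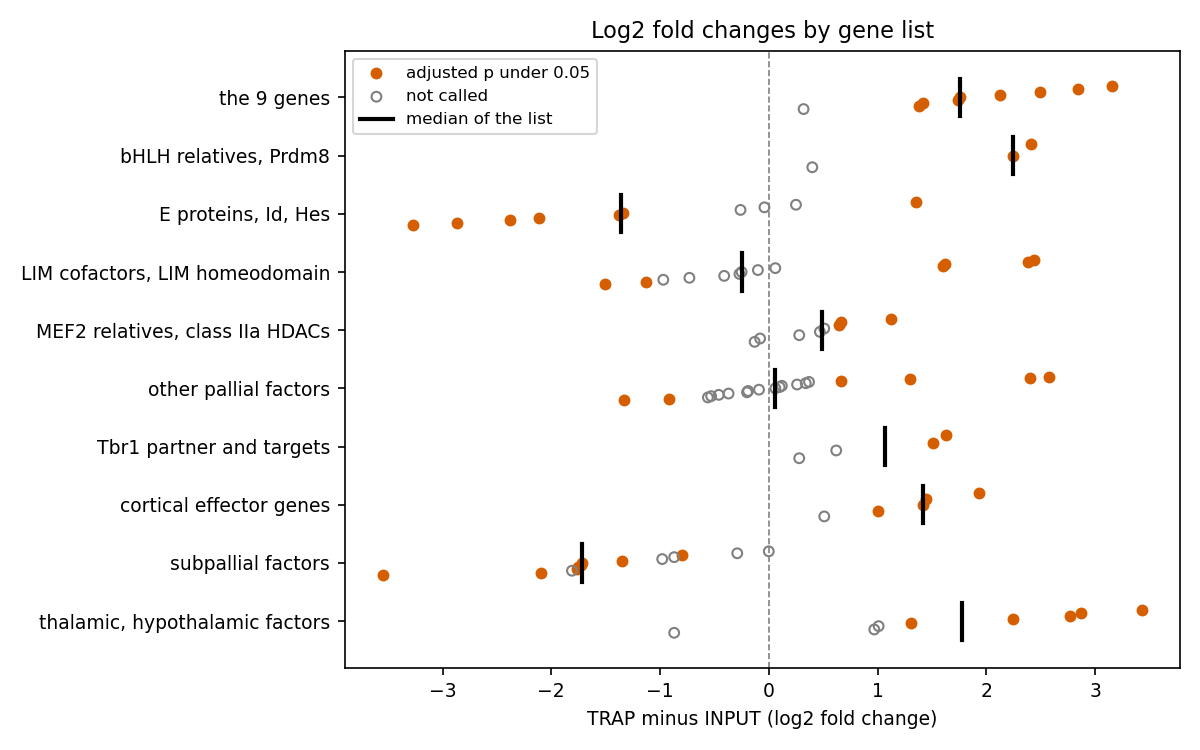
TRAP minus INPUT on the log2 scale (horizontal axis) for the tested genes of 10 lists. Each point is 1 gene, filled where the adjusted p was under 0.05 and open where it was not, and black bars are list medians. The 9 factors lie between 0.32 and 3.16 with a median of 1.76. Thalamic and hypothalamic factors lie around a median of 1.78, other pallial factors around 0.06, and subpallial factors around -1.72.

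The gene whose 4 differences within pools lay nearest to those of each called factor was found among all genes tested, by root mean square distance on the log2 scale. Neurod6 was nearest to Eomes (0.18), Emx2 to Skiv2l (0.17), Bhlhe22 to Fat4 (0.16), Fezf2 to Lars (0.10) and Mef2c to Noc3l (0.06). The nearest genes of the other 3 were more distant, with Nemf at 0.31 from Neurod2, Jhy at 0.44 from Tbr1 and Chgb at 0.47 from Neurod1. Fewer genes have log2 fold changes that large. Tbr1, Neurod1 and Neurod2 ranked 19, 26 and 105 among all genes tested, Neurod6 48, and Mef2c and Emx2 557 and 606. A near gene is easily found among so many, and the distances were not compared with those of other genes. No other factor of the 9 was the nearest gene of any of them.

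Markers of other cell types moved as follows beside these results. Slc32a1, the vesicular GABA transporter gene, fell by 1.26 on the log2 scale (adjusted p = 0.0055), although not past the threshold without VP1.6. The GABA synthesis genes Gad1 (0.30, adjusted p = 0.47) and Gad2 (-0.05, adjusted p = 0.92) were not called in either direction. Of GABAergic, medium spiny neuron, astrocyte, oligodendrocyte and microglia markers, 3, 4, 4, 4 and 3 were called lower, each of 5, and 0 were called higher. Without the block all 5 microglia markers were called lower and 1 oligodendrocyte marker higher. The summed level of GABAergic markers overlapped between TRAP (1020 to 1690 CPM) and INPUT (1070 to 1780 CPM). The summed level of microglia markers was 16.6 to 25.5 CPM in TRAP and 57.5 to 92.3 CPM in INPUT, that of astrocyte markers 150 to 253 and 343 to 502 CPM, and that of oligodendrocyte markers 900 to 1630 and 3510 to 3810 CPM. General neuronal markers with Slc17a6 were higher in TRAP for 5 of 6, at 19200 to 27600 CPM against 5490 to 10600 CPM. Snap25 was the largest part of this sum, with means of 18600 CPM in TRAP and 5170 CPM in INPUT. Its log2 fold change was 1.93, while those of the other general neuronal markers lay between 0.55 and 1.06. Of 4 cholinergic markers, Slc18a3 was called lower (-1.75, adjusted p = 0.013, and not without VP1.6), while Chat (0.70, adjusted p = 0.066) and Slc5a7 (0.81, adjusted p = 0.083) were positive and Chat was called higher without the block. The cholinergic sum was 89.8 to 138 CPM in TRAP and 39.8 to 84.7 CPM in INPUT. Of 3 endothelial markers tested 1 was higher, with summed levels that overlapped between fractions (6.45 to 50.3 and 3.51 to 41.7 CPM). The endothelial markers Cldn5 and Tek have no values here. The part of the lower glial share in the rise of neuronal factors was not tested.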

How the data were processed

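The authors aligned reads with STAR 2.5.1a to the mouse genome (Ensembl release 76), counted uniquely aligned reads per gene with featureCounts, and scaled them by TMM with edgeR. Per the labels limma was used. The deposited per-library values are log2 CPM. The table also holds the authors' fold changes, p-values and a transcript number, which were not used. Both VP2.11 libraries and the INPUT library of VP1.6 carry 3 significant digits. Of 14398 entries, 45 repeats were dropped. Positions and merged exon lengths came from GENCODE M21 (GRCm38), matched for all 14353 genes.

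Genes that exceeded 1 CPM in 3 or more libraries were fitted with limma 3.58.1 (R 4.3.3; lmFit, eBayes with a trend), pool as a block, Benjamini-Hochberg over all genes. The fit was tested on simulated data in which both libraries of a pool shared their deviation. The deviations in the real data were opposed, so that test does not show how the fits behave on them. Pools pair libraries because both fractions come from 1 homogenate; same-pool deviations correlated at -0.755 to -0.503, other pairs at 0.0462 to 0.437. The opposed deviations within pools run against what a shared homogenate would give and were not explained. Pools share colony and protocol, so p-values measure spread between pools. Total read counts were not used, so no counting error is given. The methods name an unbound fraction where the labels name Input.

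The factors, lists and naming rule (every factor, up to 4 called genes per list with the largest changes, 11 set relatives and transporters, and each nearest gene) were chosen with earlier results of these data known; a few listed genes are not reported here by name. Tcf4, Lmo2, Lmo4, Pou3f3, Zbtb18, Tcf7l2, Gbx2, Gad1, Gad2, Chat, Slc5a7 and Emx2os fall outside the rule and were named after their values were seen. Alternatives were no block, library weights, other filters, no trend, median centring, the exon length trend removed, log2(CPM + 1) and each pool left out.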

Additional observations from a re-analysis of the deposited data

Results flagged for a closer look

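Neurod6 in the TRAP library of VP2.2 was at 5.07 log2 CPM, while the other 3 TRAP libraries lay between 5.74 and 5.82. The gap to the nearest library was most of the range of the group. Among 40 groups of 4 libraries examined in this way, 1 such gap was found, and chance gives about 2. The difference of Neurod6 within VP2.2 was 2.04, close to the 2.01 of VP2.11.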

How the results depend on the processing

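Of the 9 factors, 8 were called higher and 0 lower under every alternative, except that 7 were called higher without VP2.6 or without VP2.11, where Emx2 was lost. No log2 fold change of a factor changed sign, and the lowest and highest over the alternatives were 2.94 and 3.31 for Tbr1, 2.6 and 3.05 for Neurod1, and 0.12 and 0.45 for Lhx2. Removing the replicate block, and so the pairing by pool, raised the genes called from 4592 to 6830, of which 4575 were shared, and left the calls of the 9 factors as they were (8 higher, 0 lower). Without division by exon length, 5 of the 9 factors kept their place in the order of levels in TRAP and 5 in INPUT, and the other 4 moved. Among the other genes followed, 45 results over all alternatives lost the threshold, 9 gained it and none changed sign. Gbx2, Gad1, Gad2 and the nearest genes apart from Eomes were not in this count. Gbx2 was called lower with library weights (-1.63) and without VP2.11 (-1.96). Emx2, Fezf2, Bhlhe22, Neurod2 and Neurod1 lay at a few CPM in INPUT, so their fold changes rest on low levels.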

Other observations

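Of 13 tested subpallial GABAergic lineage factors, 0 were called higher and 8 lower, with a median log2 fold change of -1.72. Dlx6 (-3.55, adjusted p = 0.012), Lhx8 (-2.09, adjusted p = 0.0024), of cholinergic and GABAergic neurons, Sp8 (-1.76, adjusted p = 0.0053) and Isl1 (-1.75, adjusted p = 3.8e-04) led them. The difference of Dlx6 was -9.23 in VP1.6 and between -2.29 and -1.11 in the other pools. Over the alternatives run, 6 to 11 of the subpallial factors were called lower and 0 higher.

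Of 8 tested thalamic and hypothalamic glutamatergic factors, 5 were called higher and 0 lower, with a median of 1.78, and 3 were not called, of which Gbx2 was at -0.87. Among them were Sim1 (2.87, adjusted p = 0.0034), Fezf1 (2.77, adjusted p = 0.0087), the relative of Fezf2, Otp (2.25, adjusted p = 8.7e-04) and Tcf7l2 (1.31, adjusted p = 4.8e-04). Fezf1 was not called without VP2.6 (2.21). Sim1 and Fezf1 passed the filter on low values through TRAP, so their differences were partly set by it. With over 1 CPM required in all 8 libraries, 3 of the 8 were tested, all 3 called higher, with a median of 1.31. Without VP2.11, 4 were called higher and 1 lower. No test compared this list with the pallial factors. The differences of Emx1 within pools (4.02, 1.26, 0.99 and 4.05) and those of the endothelial marker Flt1 (3.65, 1.08, 0.93 and 3.81) ran in the same order, as a description over 4 pools. In the INPUT library of VP1.6 they were at only 0.164 and 0.497 CPM. Few orders are possible over 4 pools, the share of all genes with this order was not counted, and a shared source was not tested.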
